A study of Raphidocelis subcapitata with 493 samples.

Results

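In cultures of the unicellular green alga Raphidocelis subcapitata exposed for 24 h to PFHpA, PFPeA, PFPB or 6:1 FTOH, a shared set of transcripts stood higher at 10 µM than at the 2 neighbouring concentrations, and another set stood lower. Both sets were defined from those libraries: for each gene and compound the mean log2(CPM + 1) at 10 µM was compared with the average of the means at 3 and 32 µM, where CPM is the count scaled to a common library total (counts per 1e+06), and this difference is called the 10 µM shift. Of 13429 gene identifiers, 7945 had a mean CPM of at least 10 in all 4 compounds. The 100 genes with the highest smallest shift over the 4 compounds are the rise members, and the 100 genes whose shift nearest to 0 was lowest are the fall members, 200 genes in all. Their shifts in these 4 compounds chose them, so those values are a description and carry no test.

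PFHpA (perfluoroheptanoic acid) and PFPeA (perfluoropentanoic acid) are perfluorinated carboxylic acids, and 6:1 FTOH is a fluorotelomer alcohol by its label. They belong to the per- and polyfluoroalkyl substances, PFAS, a large class of persistent man-made chemicals that reach surface waters. R. subcapitata is a standard freshwater test species whose growth is used to judge the hazard of chemicals to algae. Transcripts whose level changes with concentration, read against solvent controls, are used to find the lowest concentration at which such a culture responds. No gene annotation is used here, so the members are described by identifier and by behaviour, with no function assigned.

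The study exposed algae in exponential growth to 22 PFAS, tested 2 at a time in 11 exposures, each exposure with its own 3 control libraries labelled DMSO. The design text gives the control solvent as DMSO or methanol, depending on the compound, so "DMSO" here follows the library labels. PFHpA and PFPeA were one exposure, and PFPB and 6:1 FTOH were another. Each compound had 7 concentrations, which for 21 compounds were labelled 0.1, 0.3, 1, 3, 10, 32 and 100 µM, the 3 µM label standing where the protocol lists 3.2 µM, with 3 libraries each except the 100 µM groups of PFHpA and 6:1 FTOH, which had 2. PFTrDA was tested at other concentrations, so 17 other compounds have a 10 µM shift. All 493 libraries, treated and control, came from the same culture conditions, and wells held 0.33% solvent. RNA came from pooled homogenates, and whether the 3 libraries of a group were separate cultures is not stated, so a p-value here reflects how far library replicates scatter, and that scatter may be technical. In bulk RNA a change in the share of cells in some state and a change of RNA per cell cannot be told apart. The position of each concentration on the plates is not in the labels used here, so position and concentration cannot be told apart either.

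Library totals ranged from 259836 to 2470296 counts, with a median of 1161621, and the lowest medians by exposure were 382721 for PFTrDA with PFNA and 658987 for PFUdA with PFTeDA. The 12 libraries at 10 µM of the 4 compounds held 1257524 to 2006553 counts, the 24 at 3 and 32 µM held 938712 to 1763029, and the 6 DMSO libraries of the same exposures held 751128 to 1335063. The 10 µM libraries were therefore among the deeper ones. No pair of the 12 was alike within sampling noise, since the chi-square of their counts was at least 2.17 times its degrees of freedom over 66 pairs. PFHpA at 0.1 µM replicate 2 and PFPeA at 0.1 µM replicate 3, of the same exposures, stood apart from their own groups in member levels.

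The rise members formed 2.90% to 3.43% of all counts in the 12 libraries at 10 µM, against 1.53% to 2.06% in the 24 libraries at 3 and 32 µM. The fall members formed 0.987% to 1.83% at 10 µM, against 1.85% to 3.60% at 3 and 32 µM. In neither set did the 2 groups of libraries overlap, which the choice of members favours. Averaged over the 100 rise members, the level was 6.98 to 7.29 log2(CPM + 1) with a median of 7.18 at 10 µM, and 5.94 to 6.72 with a median of 6.36 at 3 and 32 µM. Averaged over the 100 fall members, the level was 4.68 to 5.09 with a median of 4.89 at 10 µM, and 5.66 to 6.19 with a median of 5.98 at 3 and 32 µM.

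**Figure D1:**
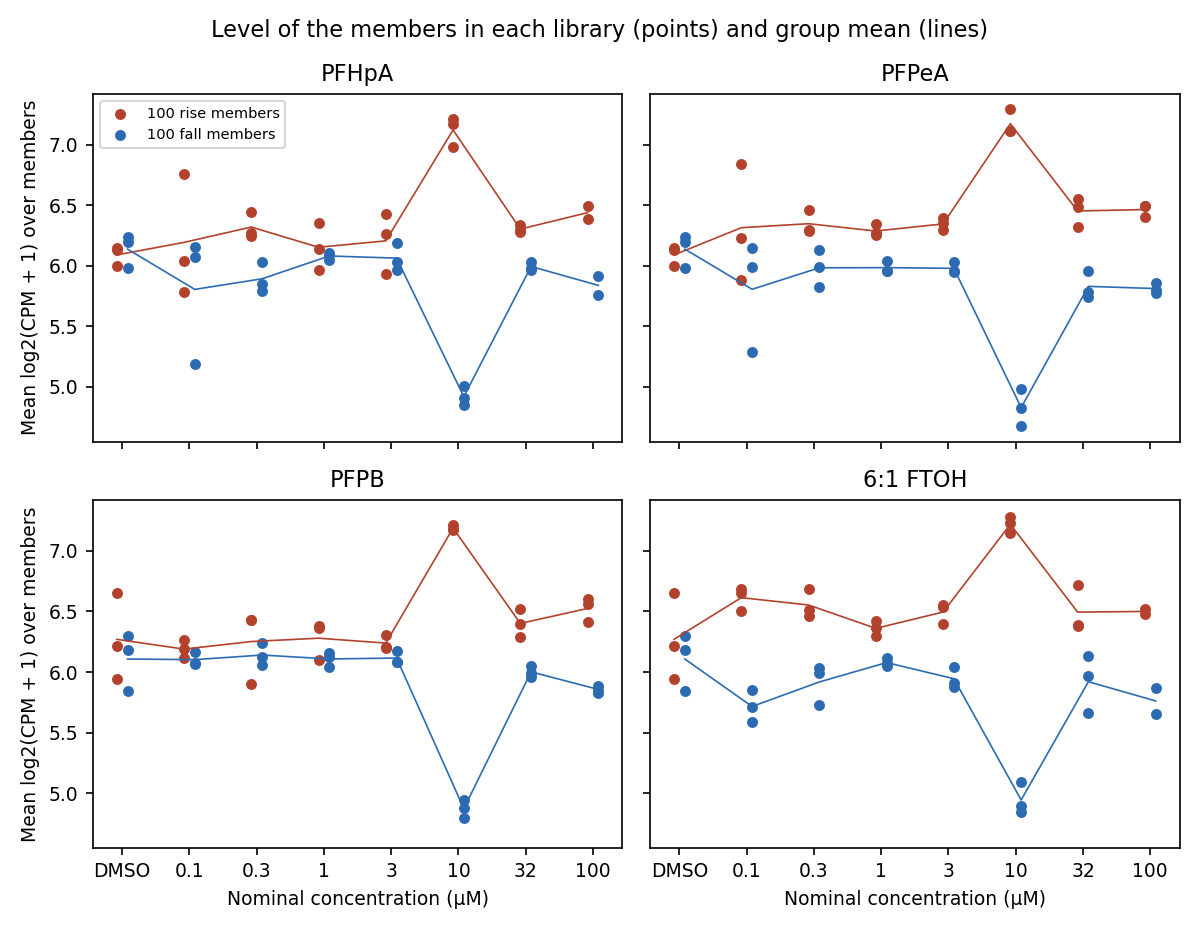
Mean log2(CPM + 1) over the 100 rise members (red) and the 100 fall members (blue) in each library, by nominal concentration in µM, for the 4 compounds; lines join group means, and compounds of one exposure share their 3 DMSO libraries. The 12 libraries at 10 µM lie at 6.98 to 7.29 for the rise members and 4.68 to 5.09 for the fall members, apart from both neighbouring concentrations.

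At 32 and 100 µM the levels were back within the range of the lower concentrations. The rise level minus the fall level, both in log2(CPM + 1), was 2.06 to 2.61 in the 12 libraries at 10 µM, -0.25 to 1.06 in the 24 at 3 and 32 µM, -0.38 to 1.57 in the 46 at 0.1, 0.3, 1 and 100 µM, and -0.35 to 0.80 in the 6 DMSO libraries. Of the 76 other libraries of the 2 exposures, 0 reached the lowest of the 12. The 2 nearest were PFHpA at 0.1 µM replicate 2, at 1.57, and PFPeA at 0.1 µM replicate 3, at 1.55. Depth moved with the 10 µM groups, and its bearing on the member levels was not tested. The 49 other libraries of these exposures with totals no lower than the shallowest of the 12, which reach 1794988 counts where the 12 reach 2006553, had differences of -0.34 to 1.57, with a median of 0.31.

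Members differed in how far they moved. The largest smallest shift among rise members was 1.26, on the log2(CPM + 1) scale, and the next was 0.91. The 50th was 0.64, and the 100th and 101st were both 0.57, so the limit of the set falls in a continuum. Among fall members the first was -1.39, the second -1.36, the 50th -0.83, and the 100th and 101st both -0.72. Median shifts of the rise members were 0.82 in PFHpA, 0.74 in PFPeA, 0.86 in PFPB and 0.71 in 6:1 FTOH. Those of the fall members were -1.05, -1.02, -1.13 and -0.93 in the same order. In 48 of 100 rise members and 41 of 100 fall members the smallest shift of the 4 was that in 6:1 FTOH. Each of the 12 libraries at 10 µM was set against the libraries of its compound at the neighbouring concentrations with the same replicate number. Whether such a number marks a shared plate is not stated. The shift was seen in each of the 12, with a median over rise members of 0.50 to 0.93. Over fall members the median was -1.27 to -0.70. In each, 97 to 100 rise members lay above 0 and 96 to 100 fall members below 0.

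Single members varied more between libraries than the averages. Of the 100 rise members, 25 had all 12 values at 10 µM above all 24 values at 3 and 32 µM, and of the 100 fall members 20 had all 12 below, against 0.78% and 0.768% of the 7945 genes. The rule used these libraries, so nothing is read from those counts. Against the 46 libraries at 0.1, 0.3, 1 and 100 µM, which the rule did not use, 6 rise members lay wholly above and 6 fall members wholly below, against 0.126% and 0.151% of genes. Against the 6 DMSO libraries of the 2 exposures, 53 rise members lay wholly above and 48 fall members wholly below, against 3.29% and 3.32%. The 12 libraries at 10 µM are the ones that chose the members, so these counts too are a description.

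The members are the extreme of a broader shift. Of the 7945 genes, 2193 (27.6%) had a shift above 0 in all 4 compounds and 2511 (31.6%) a shift below 0 in all 4. Across genes, which are not independent replicates, the shifts of compound pairs correlated with r = 0.66 to 0.76. With the 200 members left out, each of the 12 libraries at 10 µM was still most alike to another of the 12 over the remaining 7745 genes, with r of 0.67 to 0.77 after each gene's mean over all 493 libraries was subtracted. The median r with the 6 libraries at 10 µM of the other exposure was 0.39 to 0.64, and that with the rest of the library's own exposure was 0.26 to 0.39. The first was the higher for 12 of 12 libraries. The 4 compounds were picked for sharing the shift, and genes outside the limit of the sets hold it too. These likenesses are therefore a description and no independent test.

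How genes picked in one exposure behaved in the other is described by lists rebuilt from 2 compounds at a time. Genes are counted as called where edgeR's quasi-likelihood test gave a Benjamini-Hochberg adjusted p under 0.05 for 10 µM against 3 and 32 µM. The 4 compounds were picked for sharing this same shift, so the counts are a description and no independent test. Of 100 rise genes rebuilt from PFHpA and PFPeA, 80 were called higher in PFPB, where 9.47% of all tested genes were, and 51 in 6:1 FTOH, where 3.18% were. Of 100 fall genes rebuilt from the same pair, 58 were called lower in PFPB (8.71% of all) and 39 in 6:1 FTOH (3.98% of all). In the other direction, 58 rise genes rebuilt from PFPB and 6:1 FTOH were called higher in PFHpA (6.82% of all) and 57 in PFPeA (5.56% of all), while 50 and 45 fall genes were called lower (7.33% and 4.91% of all). The sum was 438 of 800 gene tests, and 97 to 100 of each 100 genes had the same sign in the held-out compound. Without the libraries of replicate 2 the sum was 176, with the matching share of all genes not given. The rebuilt lists shared 33 rise and 21 fall genes with each other, and 49 rise and 35 fall genes rebuilt from PFHpA and PFPeA were members, as were 63 and 51 rebuilt from PFPB and 6:1 FTOH.

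At the other concentrations of the 4 compounds the members lay between DMSO and the 10 µM level in places. Over 16 contrasts against DMSO, at 0.1, 0.3, 1 and 100 µM of each compound, 22 rise members were called higher and 30 fall members lower of 1600 tests each, against 0.191% and 0.226% of all gene tests. The calls gathered in few groups. In 6:1 FTOH at 0.1 µM 7 rise members were called higher (0.549% of all genes) and 4 fall members lower (0.57% of all). In 6:1 FTOH at 100 µM 6 rise members were called higher (1.12% of all) and 2 lower, and 9 fall members were called lower (1.35% of all) and 1 higher. In PFPB at 100 µM 3 rise members were called higher (0.291% of all) and 9 fall members lower (1.03% of all). In PFPeA 4 rise members were called higher at 0.1 µM (0.413% of all), and at 100 µM 1 rise member was called higher (0.328% of all) and 7 fall members lower (0.498% of all). Median changes of the rise members over these contrasts ranged from -0.08 to 0.34 log2 and those of the fall members from -0.44 to 0.02, against -0.02 to 0.02 for all genes. The same 3 DMSO libraries serve all contrasts of an exposure. The summed counts of 22 and 30 moved with the libraries used: without the libraries numbered replicate 2 they were 0 and 3, without replicate 3 they were 55 and 49, and without replicate 1 they were 8 and 20. Without the 2 libraries at 0.1 µM that stood apart they were 27 and 43. Shares of all genes called with these libraries left out are not given.

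In the other compounds the reported edgeR fits called no single member for the 10 µM shift. Over 17 compounds, 0 of 1683 tests called a rise member higher and 0 of 1683 called a fall member lower at 10 µM than at 3 and 32 µM, by edgeR's quasi-likelihood test. At an unadjusted p under 0.05 there were 31 and 46, and DESeq2 called 1 and 0. In the opposite direction 64 rise members lay lower and 65 fall members higher at an unadjusted p under 0.05. Of all gene tests 0.00837% were called higher and 0.00579% lower, so few genes of any kind were called for a shift at 10 µM in these compounds. The standard error of a rise member's shift had a median of 0.19 log2 and that of a fall member 0.25. In 1460 of 1683 tests (86.7%) the estimate plus 1.96 standard errors stayed below the smallest shift the rise member had in the 4 compounds, and 1461 of 1683 (86.8%) fall member tests did likewise in their direction. These intervals are not adjusted for the number of genes, and the adjusted test may miss a shift of that size.

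In the other compounds median shifts lay on both sides of 0. Median shifts of the rise members ran from -0.23 in PFTeDA, -0.19 in PFUdA and -0.16 in FC10diol to 0.09 in PFHxS and 0.10 in PFTDoDA. Median shifts of the fall members ran from 0.23 in PFTeDA and 0.20 in FC10diol to -0.16 in PFHxS. PFHxS had 71 of 100 rise members above 0 and 78 of 100 fall members below 0, while 50.2% and 49.8% of the 7945 genes lay on those sides. Its replicate numbers 1, 2 and 3 differed, with 16, 65 and 96 rise members above 0 and 26, 61 and 90 fall members below 0. Replicate 1 thus went the other way. PFTeDA had 68 rise members below 0 and 72 fall members above 0. The 51 libraries at 10 µM of the 17 compounds were each set against libraries of the same replicate number at the neighbouring concentrations. Their median over rise members was -0.39 to 0.42, all below the 0.50 of the lowest of the 12. Between the 2 compounds of an exposure the difference of the shift was called for 0 members over 8 exposures, by edgeR's quasi-likelihood test, with 49 at an unadjusted p under 0.05 and 0 by DESeq2. Of all genes 0% were called.

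**Figure D2:**
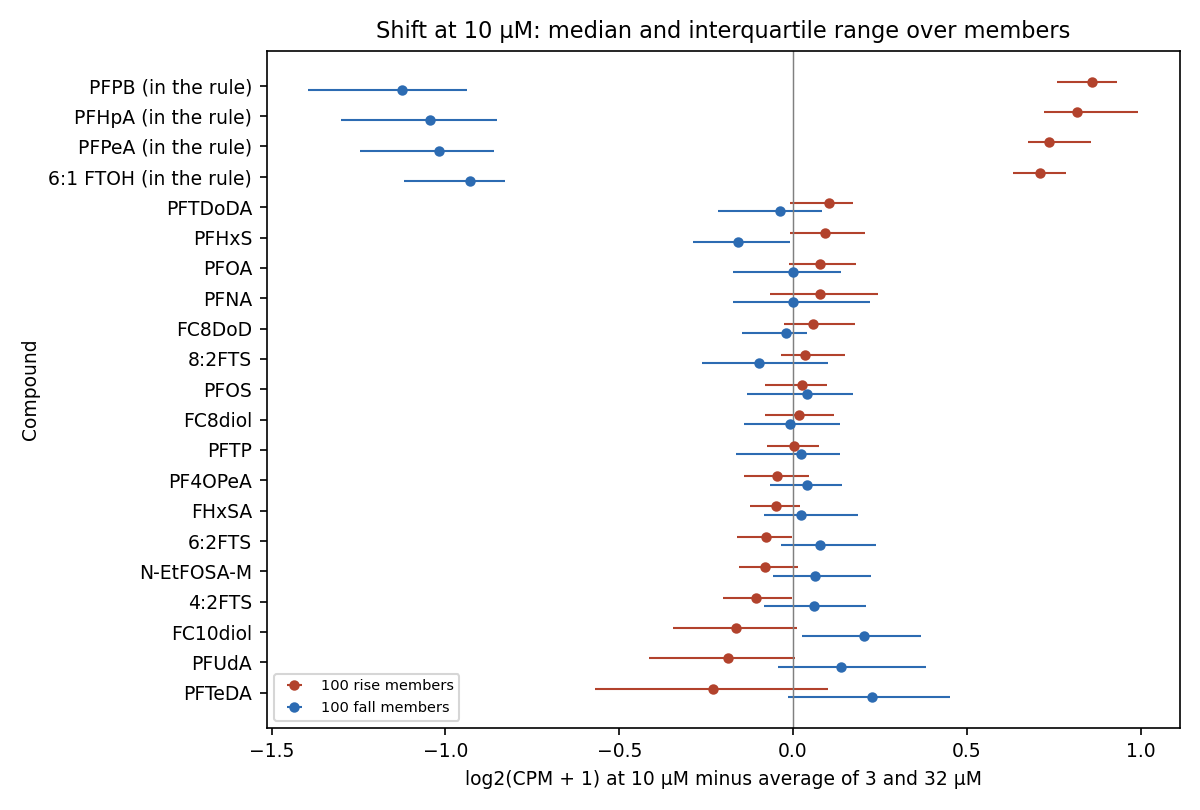
Shift at 10 µM (mean log2(CPM + 1) at 10 µM minus the average of 3 and 32 µM) for 21 compounds; points are medians over the 100 rise members (red) or 100 fall members (blue) and bars are interquartile ranges over members. The 4 compounds that chose the members have medians of 0.71 to 0.86 and -1.13 to -0.93, and the 17 others lie between -0.23 and 0.23.

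Against DMSO, 10 µM of the 17 other compounds called 27 rise members higher and 71 lower, of 1683 tests, where 1.73% and 1.05% of all gene tests were called. Fall members were called higher in 43 tests and lower in 13. Set beside the direction in the 4 compounds, the summed calls were 71 and 43 against it and 27 and 13 with it. PFHxS had the most calls with it, with 11 rise members higher, where 3.95% of all genes were called higher, and 6 fall members lower (1.74% of all). In FC10diol 18 rise members were called lower (5.92% of all) and 14 fall members higher (8.55% of all), and in PFTeDA 13 of 95 tested rise members were called lower (1.61% of all) and 2 fall members higher (0.513% of all). Without replicate 2 the 71 became 15, the 27 became 9 and the 13 became 3, and without replicate 3 the 27 became 65. How calls over all genes changed alongside is not given.

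At 100 µM rise members fell with several of the other compounds. Over the 17 compounds 192 of 1683 tests called a rise member lower than in DMSO, against 4.55% of all gene tests, and 61 called one higher, against 4.71%. Fall members were called higher in 83 tests and lower in 50. With PFTDoDA 45 of 100 rise members were called lower, where 10.9% of all genes were, and 7 higher, and the median change over rise members was -0.43 log2. With FC10diol 44 of 98 were called lower (29.9% of all genes) and 25 higher (28.6% of all genes). The rise members called lower were 25 of 100 with FHxSA (8.3% of all genes), 18 of 97 with FC8diol (4.81% of all genes) and 16 of 100 with PFTP (7.73% of all genes). Those called higher were 6 with FHxSA (7.1% of all genes) and 2 with FC8diol (5.27% of all genes). For the fall members the counts were closer to the background: with PFTDoDA 14 of 99 were called higher, where 12.4% of all genes were, and with FC10diol 22 of 98 were called higher and 24 lower. The 192 became 100 without replicate 2 and 126 without replicate 3, with the change in calls over all genes not given. Whether these compounds differ from the others in this was not tested.

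**Figure D3:**
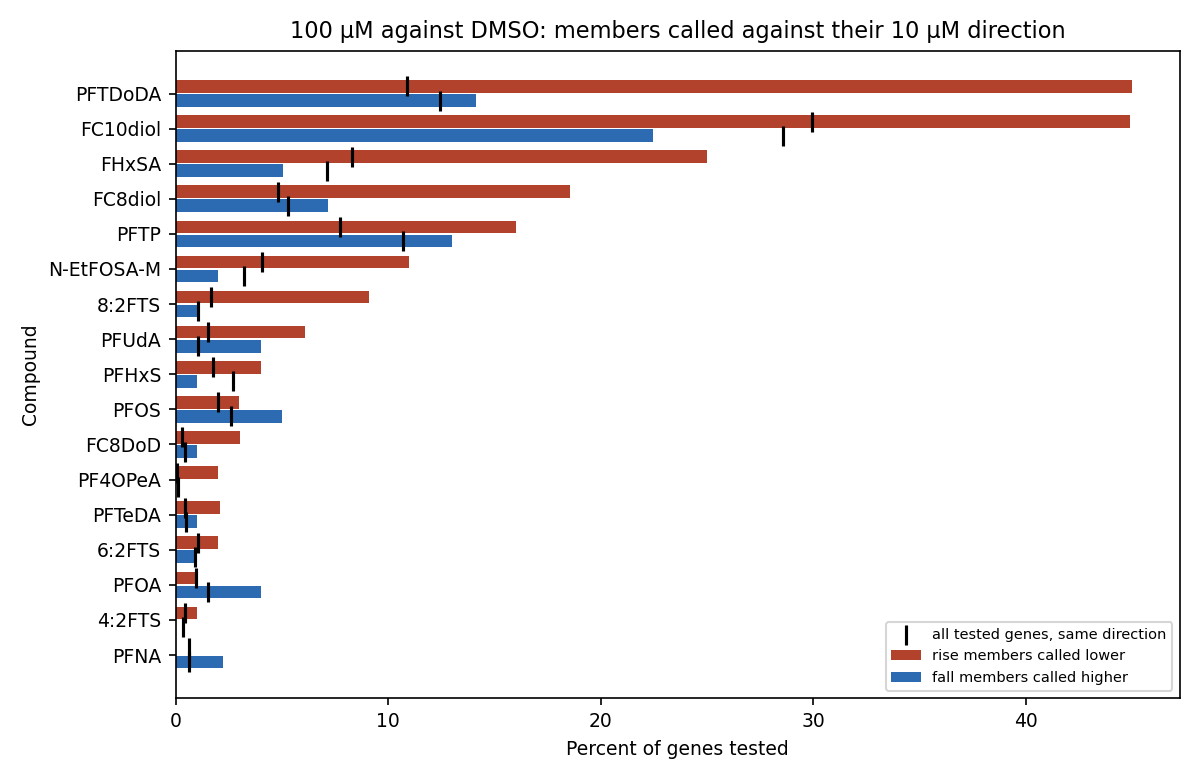
Percent of tested rise members called lower (red bars) and fall members called higher (blue bars) at 100 µM than in DMSO for the 17 other compounds; black ticks give the percent of all tested genes called in the same direction. PFTDoDA and FC10diol stand at the top for the rise members, with 45 of 100 and 44 of 98 called lower, against 10.9% and 29.9% of all genes.

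The DMSO libraries themselves differed between exposures in these genes. Over the 33 DMSO libraries of the 11 exposures, 97 rise and 96 fall members were called between exposures, 193 of 200, while 74.8% of all 9726 tested genes were. Between replicate numbers within exposures 6 members were called, where 1.26% of all genes were. The rise level minus the fall level in DMSO, as the mean of 3 libraries with its SD, was -0.05 ± 0.20 in the PFHpA and PFPeA exposure and 0.16 ± 0.59 in the PFPB and 6:1 FTOH exposure, the lowest of the 11. It was 0.20 ± 0.22 for PFUdA with PFTeDA, 0.42 ± 0.12 for PFHxS with FC8DoD, 0.53 ± 0.37 for PFOS with PFOA, 0.57 ± 0.26 for PFTP with PF4OPeA and 0.82 ± 0.20 for PFTrDA with PFNA. Single libraries of these exposures overlap between neighbours in that order. The other 4 exposures lay higher, at 1.30 ± 0.29 for FC10diol with FC8diol, 1.44 ± 0.04 for 4:2FTS with 6:2FTS, 1.81 ± 0.05 for FHxSA with N-EtFOSA-M and 1.83 ± 0.45 for PFTDoDA with 8:2FTS. In each exposure n = 3.

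Member levels near those of the 12 libraries at 10 µM occurred in other exposures. Of 33 DMSO libraries 1 reached the lowest of the 12, a library of PFTDoDA with 8:2FTS with a difference of 2.13, where the 12 span 2.06 to 2.61. Of 405 libraries in the 9 other exposures 18 reached the lowest of the 12, that DMSO library included. They were 15 of the FHxSA and N-EtFOSA-M exposure, 2 of PFTDoDA with 8:2FTS and 1 of 4:2FTS with 6:2FTS. The 17 treated ones come from 448 treated libraries outside the 12, but they gather in few exposures, so shares pooled over exposures do not compare treated with control. In the FHxSA and N-EtFOSA-M exposure, of 45 libraries, the 15 were all treated, and its 3 DMSO libraries lay at 1.76 to 1.84, below the lowest of the 12. Whether treated and DMSO libraries differ there in this was not tested. For 36 of 100 rise members the mean over the 12 libraries at 10 µM was above all 11 DMSO means, against 5.29% of the 7945 genes, and for 46 of 100 fall members it was below all 11, against 7.82%. These 12 libraries chose the members, which favours both counts, so they are a description. For the remaining members the 10 µM level did not pass the range that control cultures spanned. That range had a median of 1.80 log2 over rise members and 1.64 over fall members, against 1.34 over the 7945 genes.

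**Figure D4:**
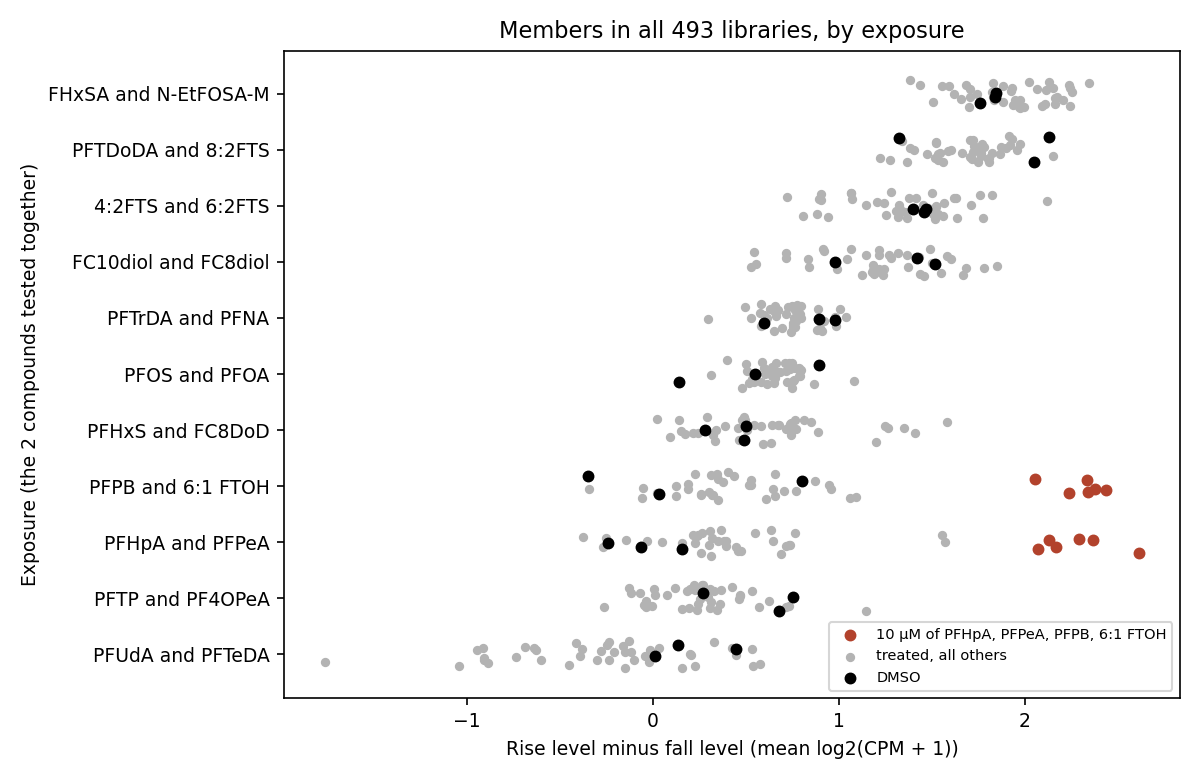
Rise level minus fall level, in mean log2(CPM + 1), for each of the 493 libraries by exposure; black points are DMSO, red points the 12 libraries at 10 µM of the 4 compounds, grey points all other treated libraries, spread vertically at random for visibility. The red points lie at 2.06 to 2.61, apart from the rest of their exposures, while 1 DMSO library of another exposure, at 2.13, lies in their range.

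The direction of the DMSO differences matched that of the 10 µM shift in most members. In 83 of 100 rise members and 7 of 100 fall members the DMSO mean of the 2 exposures of the 4 compounds lay below the mean of the 9 others, against 54.5% of the 7945 genes. The DMSO of the FHxSA and N-EtFOSA-M exposure exceeded that of the 2 exposures in 88 of 100 rise members, with a median of 0.95 log2, and lay lower in 98 of 100 fall members, with a median of -0.85. Over the 7945 genes this DMSO difference correlated with the mean shift of the 4 compounds with r = 0.50, and for the 9 exposures r ranged from -0.01 for PFUdA with PFTeDA to that value. These r are across genes, which share libraries, and are given as a description. Rise members were picked where 3 and 32 µM stood below 10 µM in these same 2 exposures, and fall members where they stood above. How far this choice bears on the DMSO levels of the members was not tested.

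Identifiers number genes in the annotation, and neighbouring numbers gave no grouping of members. Of 100 rise members 2 had another rise member at the adjacent number, and of 100 fall members 2 had another fall member there, against 1.56% and 1.53% of the other genes. Within 5 numbers the counts were 4 and 6, against 7.27% and 7.23%. The mean CPM of a gene over the 33 DMSO libraries had a median of 82.7 over the rise members and 40.9 over the fall members, against 47.7 over the 7945 genes, a comparison of 3′ tag counts, which were not scaled by gene length.

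The rise member furthest from 0 was Rsub_00647. At 10 µM its CPM was 707, 623 and 557 in PFHpA, 643, 561 and 546 in PFPeA, 534, 549 and 500 in PFPB, and 542, 497 and 582 in 6:1 FTOH. The 24 libraries at 3 and 32 µM held 187 to 273 CPM with a median of 227, and the 6 DMSO libraries 144 to 241, so the groups did not overlap. The edgeR log2 difference from 3 and 32 µM was 1.50 ± 0.23 (SE) in PFHpA, 1.36 ± 0.14 in PFPeA, 1.33 ± 0.11 in PFPB and 1.28 ± 0.12 in 6:1 FTOH. PFHpA at 0.1 µM replicate 2 held 735 CPM, above all 12. In the 17 other compounds at 10 µM, Rsub_00647 held 137 to 546 CPM over 51 libraries with a median of 234, and 1 compound, PFHxS, was called against DMSO, lower by edgeR with a log2 change of -0.85 ± 0.13 (adjusted p = 3.4e-05). At 100 µM it was called higher with FC10diol, by 1.05 ± 0.13 log2 (adjusted p = 2.5e-09), with PFTDoDA and with FHxSA, and lower with PFHxS, PFOS and PF4OPeA. Of those 6 calls by edgeR, PF4OPeA and PFOS were lost without replicate 1, those 2 and FHxSA without replicate 2, and PF4OPeA without replicate 3.

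The rise member with the next largest smallest shift was Rsub_04356, which was more abundant. It held 1539 to 1878 CPM with a median of 1677 in the 12 libraries at 10 µM, 595 to 1133 with a median of 795 in the 24 at 3 and 32 µM, and 572 to 1145 in the 6 DMSO libraries. The edgeR log2 difference was 1.146 ± 0.165 (SE) in PFHpA, 1.03 ± 0.21 in PFPeA, 1.24 ± 0.12 in PFPB and 0.92 ± 0.14 in 6:1 FTOH. DMSO libraries of other exposures reached the 10 µM level: those of PFTDoDA with 8:2FTS held 1591, 2095 and 1873 CPM, and those of PFUdA with PFTeDA 604, 563 and 571. At 100 µM Rsub_04356 was called lower than in DMSO with FC10diol, by -2.34 ± 0.12 log2 (adjusted p = 7.3e-20, edgeR), and with PFTDoDA, by -0.42 ± 0.10 (adjusted p = 0.001). The PFTDoDA call was lost without replicate 2.

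**Figure D5:**
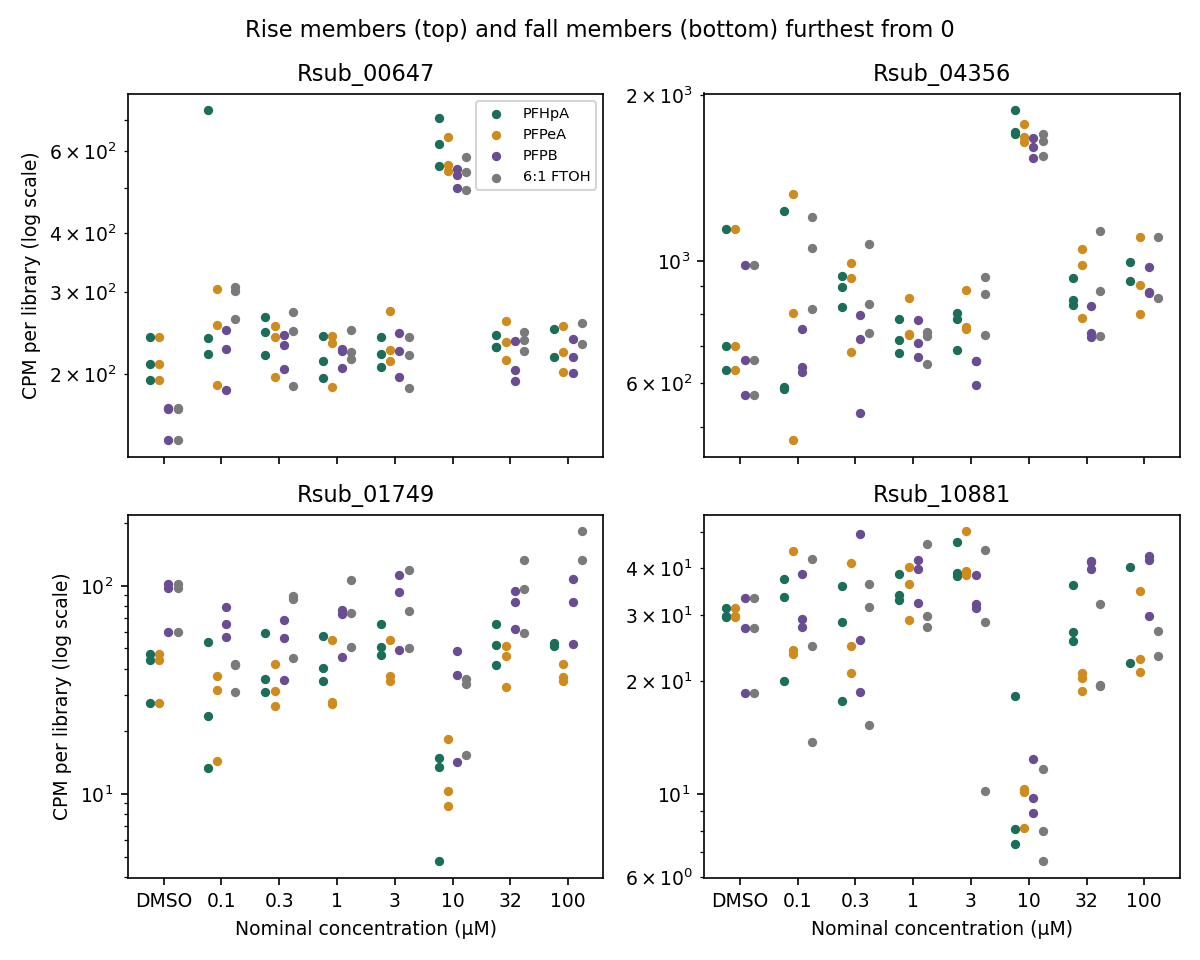
CPM in each library (log axis) against nominal concentration in µM for the rise members Rsub_00647 and Rsub_04356 and the fall members Rsub_01749 and Rsub_10881, coloured by compound; the 3 DMSO libraries of an exposure are drawn for both of its compounds. At 10 µM Rsub_00647 lies at 497 to 707 CPM against 187 to 273 at 3 and 32 µM, and Rsub_10881 at 6.62 to 18.3 against 10.2 to 50.3.

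The fall member Rsub_01749 stood lower at 10 µM than at 3 and 32 µM of the 4 compounds. In another contrast, 100 µM against DMSO, it was called higher with 9 other compounds. Its CPM at 10 µM was 4.74, 13.4 and 14.8 in PFHpA, 8.71, 18.4 and 10.3 in PFPeA, 14.2, 37.3 and 48.7 in PFPB, and 15.3, 35.7 and 33.9 in 6:1 FTOH. The libraries at 3 and 32 µM held 32.5 to 133 CPM, so the 2 groups overlapped over all compounds, though within each compound they did not. The edgeR log2 difference was -2.27 ± 0.36 (SE) in PFHpA, -1.72 ± 0.32 in PFPeA, -1.27 ± 0.31 in PFPB and -1.63 ± 0.33 in 6:1 FTOH. DMSO libraries of the 2 exposures held 27.3 to 101.9 CPM and those of the other 9 held 8.65 to 66.7. With FC10diol, by contrast, it stood at 1233, 1386 and 1313 CPM at 10 µM and at 3706, 3160 and 4018 CPM at 100 µM, where DMSO of that exposure held 52.3, 50.4 and 61.1.

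At 100 µM Rsub_01749 was called higher than in DMSO with 9 of 17 compounds by edgeR, and with 8 to 12 under the alternatives tried. The log2 changes were 6.45 ± 0.16 (SE) with FC10diol (adjusted p = 3.3e-30), 6.01 ± 0.41 with PFUdA, 5.87 ± 0.28 with PFTeDA, 4.57 ± 0.28 with PFTDoDA, 3.96 ± 0.26 with N-EtFOSA-M, 3.44 ± 0.22 with PFOS, 3.23 ± 0.15 with FC8diol, 2.99 ± 0.35 with PFNA and 2.03 ± 0.28 with PFOA. All 3 libraries of each of PFUdA, at 1239, 1224 and 1964 CPM, and PFTeDA, at 1373, 1108 and 1456 CPM, lay above their DMSO libraries, at 8.65, 23.9 and 31.6 CPM. PFUdA (perfluoroundecanoic acid), PFNA (perfluorononanoic acid) and PFOA (perfluorooctanoic acid) are perfluorinated carboxylic acids with more carbons than PFHpA and PFPeA. At 10 µM it was called higher with 8 of the 17, the same compounds without PFNA, with log2 changes from 0.72 ± 0.16 for FC8diol to 5.54 ± 0.41 for PFUdA. Of the 9 calls at 100 µM, 8 were kept without replicate 2, when PFOA was lost, and of the 8 at 10 µM 4 were kept then, with FC8diol, N-EtFOSA-M, PFOA and PFOS lost. At 100 µM of 6:1 FTOH and PFPB, which share the exposure, it was not called, and the highest value at any concentration of the 4 compounds was 183 CPM.

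The fall member Rsub_10881 was scarce. It held 6.62 to 18.3 CPM with a median of 9.32 in the 12 libraries at 10 µM and 10.2 to 50.3 with a median of 34.1 in the 24 at 3 and 32 µM, so these overlapped. The 6 DMSO libraries held 18.6 to 33.3. The edgeR log2 difference was -1.60 ± 0.33 (SE) in PFHpA, -1.56 ± 0.30 in PFPeA, -1.80 ± 0.29 in PFPB and -1.53 ± 0.39 in 6:1 FTOH. Against DMSO in the 17 other compounds, at 10 or 100 µM, its lowest adjusted p by edgeR was 0.28, with FC10diol at 100 µM. Between the DMSO libraries of the 11 exposures all 4 of these genes were called, with adjusted p from 3.7e-08 for Rsub_00647 to 0.019 for Rsub_10881 by edgeR.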

How the data were processed

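Gene counts for 493 libraries, made with a 3′ tag kit from polyadenylated RNA, were used as deposited by the authors, unnormalised. The submitters' processing notes name featureCounts 2.0.6, SAMtools 1.15.1, STAR 2.7.10a and fastp 0.23.2. Genome build, annotation and any collapsing of molecular identifiers: not given in the sources used here, so counts may include copies. The members, the lists and the tests were chosen with earlier results of these data known, and the planned pathway lists could not be matched because identifiers carry no names.

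Each compound was fitted with its own 3 DMSO libraries in edgeR 4.0.16 (R 4.3.3): TMM scaling, filterByExpr by group, glmQLFit (robust) and glmQLFTest, with Benjamini-Hochberg adjustment over all genes of the fit and calls at 0.05. DMSO libraries were fitted together with exposure as the term. Only the test between replicate numbers held replicate number as a further term. CPM used full library totals and a pseudocount of 1. Named genes are the 2 members furthest from 0 in each direction. Alternatives were DESeq2 1.42.0, other scalings, no filter, a block and leaving out each replicate number. The fits were tested on simulated data.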

Additional observations from a re-analysis of the deposited data

Results flagged for a closer look

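For each of the 4 named genes, all 3 libraries at 10 µM lay above all 3 DMSO libraries with some compounds and below them with others. Over 21 compounds, 10.9% of gene comparisons had all 3 libraries above all 3 DMSO libraries and 11.2% had all 3 below, and the 4 compounds that chose the members are included, so the counts describe and the differences were not tested. Rsub_00647 lay wholly above with 8 compounds and wholly below with 4. Rsub_04356 lay above with 4, those that chose it, and below with 5. Rsub_01749 lay above with 8 and below with 4, those that chose it. Rsub_10881 lay above with 2, FC10diol and FC8diol, and below with 7. In the 17 other compounds edgeR called Rsub_01749 higher with 8 and Rsub_00647 lower with 1, and made no call for Rsub_04356 or Rsub_10881, nor a higher one for Rsub_00647.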

How the results depend on the processing

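With each replicate number left out in turn, the range was 9 to 65 for rise members higher at 10 µM than in DMSO in the 17 other compounds (27 as reported), 3 to 22 for fall members lower (13), 15 to 86 for rise members lower (71), and 100 to 200 for rise members lower at 100 µM (192). For the other concentrations of the 4 compounds it was 0 to 55 for rise members higher (22) and 3 to 49 for fall members lower (30). It was 176 to 325 for the rebuilt lists (438), 204 to 387 for members called at 100 µM (386), 160 to 187 for DMSO between exposures (193), and 62 to 74 rise and 65 to 68 fall members shared with the lists as defined. The other membership settings shared 93 to 96 rise and 82 to 97 fall members. Shares of all genes called under changed settings are not given, here or in the next paragraph. A changed count may therefore reflect calls over all genes and not the members in particular.

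The protocol names replicate plates, but the labels do not say that a replicate number marks a shared plate. The numbers were therefore not taken as pairing in the reported fits of each compound. Only the shifts described for single libraries at 10 µM were matched by replicate number. In 0 of 21 compounds did every pair of groups correlate over 0.1, a strict bar that does not decide whether pairing exists. In 3 of 21 compounds every library correlated best with its own number. With 3 replicate numbers to choose from, 447 of 502 libraries counted by compound did so. Libraries of the same number were thus mostly the most alike, which the reported fits of each compound left out. With a replicate block the counts were 58 rise members higher and 61 fall members lower at the other concentrations of the 4 compounds, 26 fall members lower and 122 rise members lower at 10 µM than in DMSO in the 17 compounds, and 1 rise member higher for the 10 µM shift (0 as reported). DESeq2 gave 48 and 54 for the other concentrations, 10 members between replicate numbers of DMSO (6) and 1 for the shift. With no filter the values were 37, 52, 12 and 3, and 1 member was called for a difference between compounds of an exposure (0). Leaving out the 2 libraries at 0.1 µM, and the counts at 100 µM and of rise members lower, were added after seeing the data. The log2 differences of the 4 named genes kept their direction in 128 of 128 values. Depth, down to 259836 counts in the shallowest library, limits scarce members such as Rsub_10881.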
